A study of Homo sapiens with 10 samples.

Results

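In cells of the established prostate cancer line 22RV1, 855 sites carried a chromatin immunoprecipitation (ChIP-seq) summit in all 6 peak lists of the study at the end of a single protein-coding gene. They were chosen by position: a summit of the HA-RBN list on chromosomes 1-22 or X had to lie within 250 bp of a summit in each of the other 5 lists, and within 1 kb of an end of exactly 1 gene in hg38. Of 242130 HA-RBN summits, 1797 recurred in all 6 lists, and 855 of those, at 855 different genes, met both conditions. The positions in all 6 lists thus chose the sites, and their recurrence is no result. The sites had 1 library per group and no replicates, so no difference between libraries carries a p-value, and every interval below covers counting error only.

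The 6 libraries came from 3 experiments. Cells were transfected with a control siRNA or an siRNA against RB1. In the second experiment they received an empty vector, EV(245-255), or a plasmid with HA-tagged RB residues 245-255, HA-RB(245-255). In the last they received an empty vector, EV(RBN), or a plasmid for the HA-tagged insert called RBN, HA-RBN. All groups were the same cell line, fixed with 1% formaldehyde for 10 minutes. The antibody is not named in the labels. For HA-RB(245-255) the genotype field reads control whereas the title gives the construct, and the library was grouped by its title. Where a sentence gives 6 values, their order is control siRNA, RB1 siRNA, EV(245-255), HA-RB(245-255), EV(RBN), HA-RBN, called library order below. The 4 IgG libraries of the siRNA and 245-255 experiments were not analysed here. Peaks measure ChIP signal and not gene expression, so RB1 knockdown could not be checked.

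RB, the product of RB1, is a tumour suppressor that binds E2F transcription factors and holds back genes needed for DNA synthesis. TRIM24, named in the series title, is a chromatin reader and transcriptional co-regulator that acts with nuclear receptors. Most active human promoters lie in CpG islands, stretches rich in G, C and the CG pair, where short elements such as the GC box (read by SP1-type factors) and the CCAAT box (read by NF-Y) are common.

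The sequences below show what such a site looks like. They are the 250 bases before the gene start at the 4 highest-ranked sites whose summit lies in the promoter window and at EZH2 and SLBP, which were picked after their values were seen because they are highest in the siRNA against the 245-255 libraries. They were taken from RefSeq, GRCh38.p14 (hg38), are written 5′ to 3′ on the strand of the gene, and show in capitals every match to any of 15 motifs searched on both strands, overlapping matches included.
TOMM40 (chr19:44891004-44891253, plus strand): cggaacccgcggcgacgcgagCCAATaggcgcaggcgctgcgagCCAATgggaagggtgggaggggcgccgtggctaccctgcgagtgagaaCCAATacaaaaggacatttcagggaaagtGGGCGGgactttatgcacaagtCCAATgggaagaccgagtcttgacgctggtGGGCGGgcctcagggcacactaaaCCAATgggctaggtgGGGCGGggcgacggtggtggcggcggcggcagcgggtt
H4C14 (chr1:149832407-149832656, plus strand): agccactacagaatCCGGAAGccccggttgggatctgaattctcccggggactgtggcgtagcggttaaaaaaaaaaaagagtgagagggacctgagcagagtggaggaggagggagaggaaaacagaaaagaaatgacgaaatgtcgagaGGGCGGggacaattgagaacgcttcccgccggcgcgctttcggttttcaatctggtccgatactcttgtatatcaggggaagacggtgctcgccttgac
CASP9 (chr1:15524791-15525040, minus strand): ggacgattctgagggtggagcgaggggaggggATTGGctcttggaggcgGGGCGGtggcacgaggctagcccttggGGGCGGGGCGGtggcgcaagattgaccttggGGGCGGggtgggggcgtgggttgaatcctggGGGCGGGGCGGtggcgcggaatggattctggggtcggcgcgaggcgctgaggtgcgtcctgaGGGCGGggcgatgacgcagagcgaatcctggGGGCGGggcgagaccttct
SPATC1L (chr21:46184460-46184709, minus strand): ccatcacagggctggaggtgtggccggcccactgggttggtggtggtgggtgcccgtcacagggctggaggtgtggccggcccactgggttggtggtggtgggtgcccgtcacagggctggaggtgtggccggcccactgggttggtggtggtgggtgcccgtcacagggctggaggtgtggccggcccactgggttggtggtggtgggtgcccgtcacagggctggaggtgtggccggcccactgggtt
EZH2 (chr7:148884292-148884541, minus strand): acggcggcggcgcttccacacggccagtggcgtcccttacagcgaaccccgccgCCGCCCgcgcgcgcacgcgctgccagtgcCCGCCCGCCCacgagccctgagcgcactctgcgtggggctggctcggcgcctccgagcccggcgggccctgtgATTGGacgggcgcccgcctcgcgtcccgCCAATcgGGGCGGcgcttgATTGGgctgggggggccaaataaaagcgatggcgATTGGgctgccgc
SLBP (chr4:1712320-1712569, minus strand): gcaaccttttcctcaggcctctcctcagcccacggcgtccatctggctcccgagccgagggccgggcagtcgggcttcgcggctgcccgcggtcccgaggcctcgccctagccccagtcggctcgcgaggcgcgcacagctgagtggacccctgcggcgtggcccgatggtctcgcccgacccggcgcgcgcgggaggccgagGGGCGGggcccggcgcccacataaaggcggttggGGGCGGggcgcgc

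TOMM40, the import pore of the mitochondrial outer membrane, had 5 CCAAT boxes and 3 GC boxes in this stretch, with the HA-RBN summit 190 bp before the start. CASP9, the initiator caspase of the mitochondrial death pathway, had 8 GC boxes, some of them overlapping, and its summit lay 40 bp after the start, just outside the printed bases. EZH2, the methyltransferase of polycomb complex 2, had 4 CCAAT boxes and 4 GC boxes, with the summit at 238 bp before the start. SLBP, which binds the stem-loop of histone mRNA, had 2 GC boxes near the start, and its summit lay 290 bp before it. H4C14, a histone H4 gene, had 1 GC box and 1 ETS core. Histone H4 genes have near-identical copies, so reads at H4C14 are uncertain. SPATC1L held none of the 15 motifs. Its bases repeated every 53 bp, with 99.5% of letters equal after that shift, against 33.2% to 59.6% at the best shift of 10 to 100 bp in the other 5 stretches.

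Over the sites, promoters were rich in GC boxes. A promoter sequence (250 bases before to 50 after a listed start) was matched for 716 of the 855 genes, and 694 of these had their summit within 1 kb of the start. Of those 694 promoters, 81.1% (95% exact Clopper-Pearson interval 78.0 to 84.0) held a GC box (GGGCGG, either strand), against 58.5% of 15813 promoters of all genes. The CCAAT box (CCAAT) was in 48.3% (44.5 to 52.1) against 36.3%, and the ETS core (CCGGAAG) in 18.3% (15.5 to 21.4) against 14.2%. The NRF1 core (GCATGCGC) was in 7.35% against 4.26%, the YY1 core (AAGATGGCG) in 5.62% against 2.74%, and the CGCG element (TCTCGCGA) in 4.03% against 1.74%. The cyclic AMP element (TGACGTCA) stood at 4.47% against 2.59%, and the E2F site (TTTCCCGC or TTTGGCGC) at 4.47% (3.05 to 6.28) against 3.07%. The interval of the E2F site included the share of all promoters, and those of the other motifs named so far lay above it. Over the 368 promoters whose window held the summit, the cyclic AMP element was in 3.8% (2.1 to 6.3), an interval that included the share of all promoters.

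Fewer site promoters than all promoters held a TATA box (TATAAA), at 4.76% (3.30 to 6.61) against 9.64%. The same held for the AP-1 site (TGANTCA), at 3.03% (1.88 to 4.59) against 5.75%, and for the cell-cycle CHR element (TTTGAA), at 8.07% (6.15 to 10.4) against 12.1%. Over the 368 promoters whose window held the summit, the CHR element was in 9.78% (6.95 to 13.3), an interval that included 12.1%. The forkhead site (TGTTTAC) was in 2.45% against 2.62%, the E-box (CACGTG) in 10.2% against 8.87%, and the ZNF143 core (ACTACAA) in 3.17% against 3.15%; these 3 shares lay within counting error of all promoters. Motifs were searched on both strands, and a match describes letters, not a bound factor. The GC share had a median of 66.2% in site promoters and 62.7% in all promoters. The ratio of observed to expected CG pairs was 0.869 against 0.763, and it reached 0.6 in 93.8% of site promoters against 65.8% of all. Motifs rich in G and C can follow this composition, and their part in it was not tested.

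Nearly all sites with a matched promoter sat at the start of their gene. The rule accepted either end, but 705 of 716 sites (98.5%, 97.3 to 99.2) were nearer to the end where the gene starts, and 11 to the other. The 11 include SFN, WDR27, DMPK, RPS6KA4, RPL27A and SDR42E2. Among the 13491 other HA-RBN summits at 1 gene end, 71.9% (71.0 to 72.7) of those matched lay at the start side. Those others held a median of 7 fragments in HA-RBN against 26 at the sites. Among the 2253 of them matched and at least as high as the lower quartile of the sites, the share was 92.7% (91.6 to 93.8). The HA-RBN summit lay a median of 135 bp before the start (middle range from 249 bp before to 37.8 bp after).

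Summits were most frequent from 300 to 200 bp before the start. Per 50 bp bin, 84 lay from 250 to 200 bp before it and 49 in the last 50 bp before it. The first 50 bp after the start held 65 and the next 50 bp 44. Between 400 and 100 bp before the start lay 354 of 694 summits (51%), here called the upstream group. From 0 to 200 bp after it lay 174 (25.1%), the downstream group, and 95 (13.7%) lay in the 100 bp before the start. These windows differ in width, and their counts do not show separate groups. Only 3.75% were over 500 bp away, against 22.1% of the other HA-RBN summits near a start, most of which held fewer fragments. Among the others at least as high as the lower quartile of the sites it was 9.98%. Their median lay 82 bp before the start, and 37.2% lay between 400 and 100 bp before it. The upstream group had higher levels in every library: its median enrichment, the fragments at the summit divided by the library's background, was 131 with the control siRNA and 45.7 in HA-RBN, against 88.4 and 35.5 for the downstream group. The other 5 lists gave medians from 115 to 144 bp before the start, and 69.5% to 80.8% of their summits lay before it, against 68.4% in HA-RBN. The rule held those summits within 250 bp of the HA-RBN summit, so their likeness in position is no result.

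**Figure D1:**
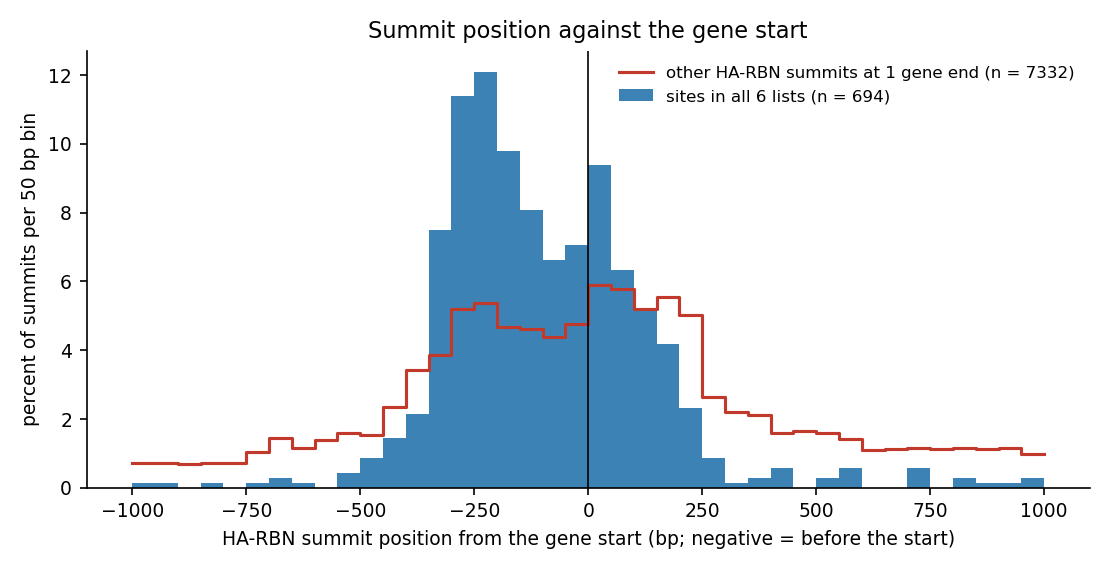
Position of the HA-RBN summit from the gene start in bp (x axis, negative before the start) against the percent of summits per 50 bp bin (y axis), for the 694 sites near a listed start (bars) and 7332 other HA-RBN summits at 1 gene end (line). The sites peak near 250 bp before the start, with 1 raised bin just after it. The others, with a median of 7 HA-RBN fragments against 26 at the sites, are spread more widely.

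The 6 summits of a site spanned a median of 181 bp, a spread that the 250 bp limit of the rule bounds. At 46 sites (5.38%) they lay within 50 bp, and at 3, FARP2, SLC2A8 and RFX1, all 6 named the same base. At the 250 bp limit of the rule, RALA and PDCL were just inside, with a farthest summit at 250 bp and 6 and 12 HA-RBN fragments, and HEATR3 at 251 bp and OAT at 252 bp were just outside with 22 and 14. At the 1 kb limit, MZT2A was inside at 995 bp with 22 HA-RBN fragments, and SLC6A16 at 1005 bp was outside with 94.

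Median fragment numbers at the sites, solved from the deposited fold enrichment and p-value of each peak, were highest in the siRNA libraries. Medians in library order were 45, 53, 27, 26, 9 and 26. The lowest sites held 4, 4, 3, 3, 2 and 3 fragments and the highest 1400, 1061, 1008, 1299, 250 and 486. Over the library background, which ranged from 0.187 to 0.634 fragments per base, the median enrichments were 109, 98.4, 144, 104, 24.6 and 41.0 in that order. All the lists had sites in their upper ranks: the median site stood above 91.1% to 98.4% of the summits of its own list. Of the sites, 88.5% had −log10 q of at least 5 in HA-RBN and 39.4% in EV(RBN), but 2.22% to 4.33% in the other 4 lists. Those 4 lists have an IgG partner and intervals with a median width of 39254 to 174886 bp at the sites, each with 1 listed summit. A gene start next to a taller summit in the same interval would be missing from such a list, so absence from the 855 is not absence of signal.

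Among summits found in all 6 lists, the sites were intermediate in level. The 201 sites near 2 or more gene ends had higher median enrichments in all 6 libraries, for example 140 with the control siRNA and 56.8 in HA-RBN. The 365 gene body sites had 77.5 and 34.7, and the 376 intergenic sites 59.3 and 25.2. In EV(245-255) and EV(RBN) the gene body median equalled that of the sites, at 144 and 24.6. Intergenic sites had the tallest single summits, up to 5206 fragments in HA-RB(245-255). Single gene ends made up 5.92% of all HA-RBN summits and 47.6% of those in all 6 lists, while gene bodies made up 44.7% and 20.3%, and intergenic positions 48.5% and 20.9%.

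**Figure D2:**
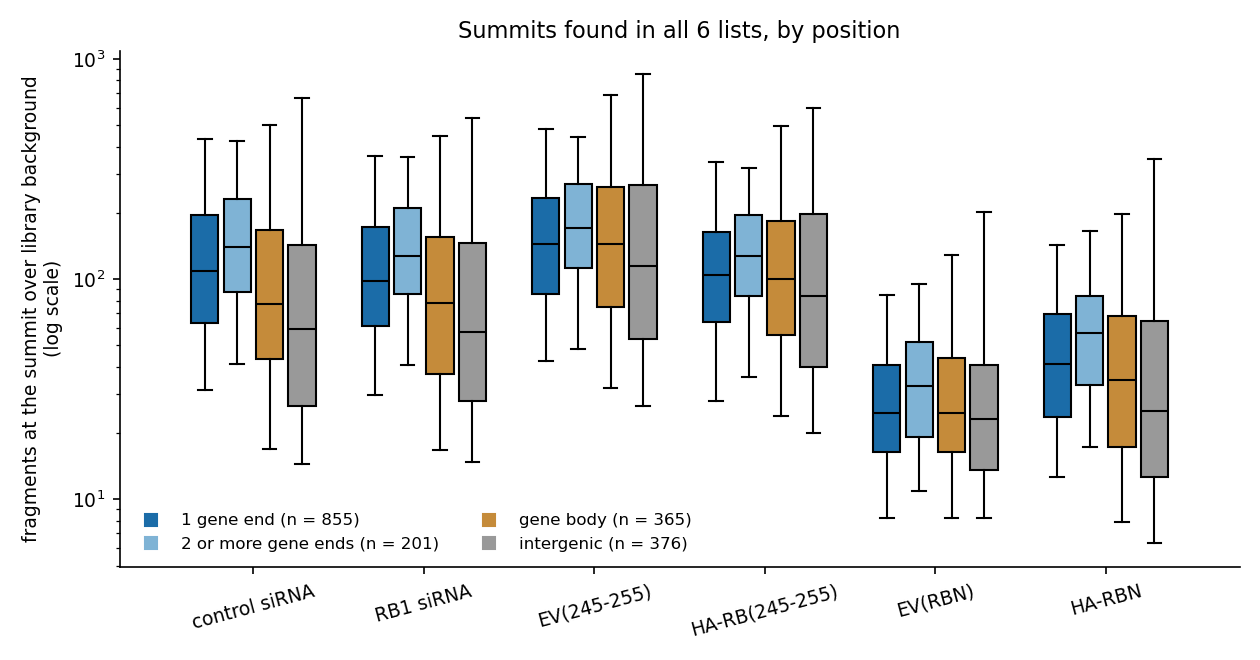
Fragments at the summit over library background (y axis, log scale) in the 6 libraries (x axis) for summits found in all 6 lists at 1 gene end, at 2 or more gene ends, in gene bodies and between genes. Boxes span the quartiles with a line at the median, and whiskers the 5th to the 95th percentile. The group at 2 or more gene ends has the highest median and the intergenic group the lowest in each library.

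The order of sites was much alike between libraries. Across the 855 sites, Pearson's r of log2 enrichment was 0.96 between the siRNA libraries, 0.92 between the 245-255 libraries and 0.84 between the RBN libraries. Between experiments it ran from 0.68 (EV(245-255) with EV(RBN)) to 0.89 (RB1 siRNA with HA-RB(245-255)). The points share cell line, library depth and promoter composition, and these values describe the sites with no test.

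The site with the best lowest rank, no worse than rank 2 of the 855 in any library, was at FARP2, a guanine-nucleotide exchange factor on chromosome 2. It held 1400, 1061, 827, 604, 138 and 486 fragments in library order, all at position 241355778, 507 bp before the start. MCPH1, which acts in chromosome condensation, held 471, 615, 1008, 1299, 250 and 273 in the same order, the tallest site in both 245-255 libraries and in EV(RBN). Its HA-RBN summit lay 539 bp beyond the upper end of the gene (chromosome 8, 6406627 to 6648508). No start was matched for MCPH1, so its site is not known to be at a promoter. CIMAP1D had 445, 371, 303, 241, 80 and 278. GET4, TMEM87B, SDR42E2, SIVA1, B3GALNT2, TOMM40 and FAM86B1 completed the 10 sites with the best lowest rank. SIVA1, a proapoptotic p53 target, reached 513 and 549 fragments in the siRNA libraries and 169 and 170 in the 245-255 libraries; with RB1 siRNA 1841 fragments also fitted. FAM86B1 has near-identical copies in the genome, so its value is uncertain.

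TRIM24 itself was among the sites. Its summit lay 120 bp from the lower end of the gene (chromosome 7, 138460259 to 138589996), and held 103, 138, 60, 55, 10 and 28 fragments in library order. Its relative log2 ratio was 0.18 for RB1 siRNA against control (counting interval -0.20 to 0.56), -0.10 in the 245-255 pair (-0.65 to 0.46) and 0.28 in the RBN pair (-0.81 to 1.49), each including 0. RB1, DUSP2 and MTOR were not among the sites. DUSP2, an ERK phosphatase, and RB1 had a summit within 1 kb of an end in 5 lists each, and MTOR in 4. None of the prostate markers KLK3, KLK2, HOXB13, FOXA1, KRT8 and KRT18 was a site, and neither were CHGA, SYP and INSM1 of neuroendocrine cells. Among the prostate markers, such a summit was in 5 lists at FOXA1, in 4 at KRT8 and KRT18, and in 2 at KLK3, KLK2 and HOXB13. Among the neuroendocrine ones it was in 4 at SYP, 1 at CHGA and none at INSM1. Peaks cannot check the cell type.

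Cell-division genes were among the lists with the largest shares. A site was found at 4.28% of all 19974 protein-coding genes, and 17 of the 20 gene lists exceeded that share. For mitosis it was 12 of 73 genes (16.4%, 8.79 to 27.0), including NEK2, PRC1, KIF11, TTK and CENPF. NEK2, a kinase of centrosome separation, held 101, 106, 51, 50, 16 and 61 fragments, and PRC1 40, 64, 27, 23, 2 and 17. The mitosis sites were low in level, with median enrichments of 76.3 with the control siRNA and 24.4 in HA-RBN. Over all sites these were 109 and 41. For DNA replication and E2F targets it was 10 of 71 (14.1%, 6.97 to 24.4), among them MCM5, a subunit of the replicative helicase, GMNN, the geminin that blocks re-replication, and CDK4. For p53 targets it was 6 of 33 (18.2%, 6.98 to 35.5): FDXR, GADD45A, MDM2, PLK2, PPM1D and RRM2B. With a summit match of 100 bp no p53 target was a site, while 1.04% of all genes were. Chromatin regulators had 15 of 122 (12.3%, 7.05 to 19.5), among them EZH2, DNMT1, TRIM24, TRIM28, SMARCA5 and CHD1. TRIM28, the co-repressor of KRAB zinc fingers, held 104, 140, 66, 58, 23 and 77 fragments.

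RNA and protein handling followed. Splicing and mRNA processing had 14 of 88 (15.9%, 8.98 to 25.2), including PTBP1 with 193, 214, 58, 57, 21 and 91 fragments and HNRNPD with 161, 185, 70, 72, 37 and 82. Heat shock and protein folding had 8 of 63 (12.7%, 5.65 to 23.5), with the chaperones HSPA8, HSPA9 and HSPA5 and the chaperonin subunit CCT3. Cytosolic ribosomal proteins had 9 of 75 (12%, 5.64 to 21.6). Shares whose interval included 4.28% were those of DNA repair (7 of 76), MAP kinases and DUSP phosphatases (6 of 62), membrane traffic (8 of 85), immediate-early genes (3 of 33: JUN, BTG1 and KLF10), proteasome (6 of 80), translation factors (4 of 64), mitochondrial proteins (9 of 151), RNA polymerase II (5 of 90) and mTOR signalling (3 of 56). The mTOR members were RHEB, the GTPase that activates the kinase complex, AKT2 and RRAGB. No site lay at any of 56 interferon and NF-kB genes, 28 neuroendocrine genes or 60 genes specific to other organs, for which the upper limits of the share were 6.38%, 12.3% and 5.96%, so a share of 4.28% could not be told from 0 at these list sizes. No olfactory receptor or keratin gene had a site (upper limits 0.937% and 2.45%, both under 4.28%), and solute carriers had 5 of 398 (1.26%, 0.409 to 2.91). These counts describe the lists and test none of them.

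**Figure D3:**
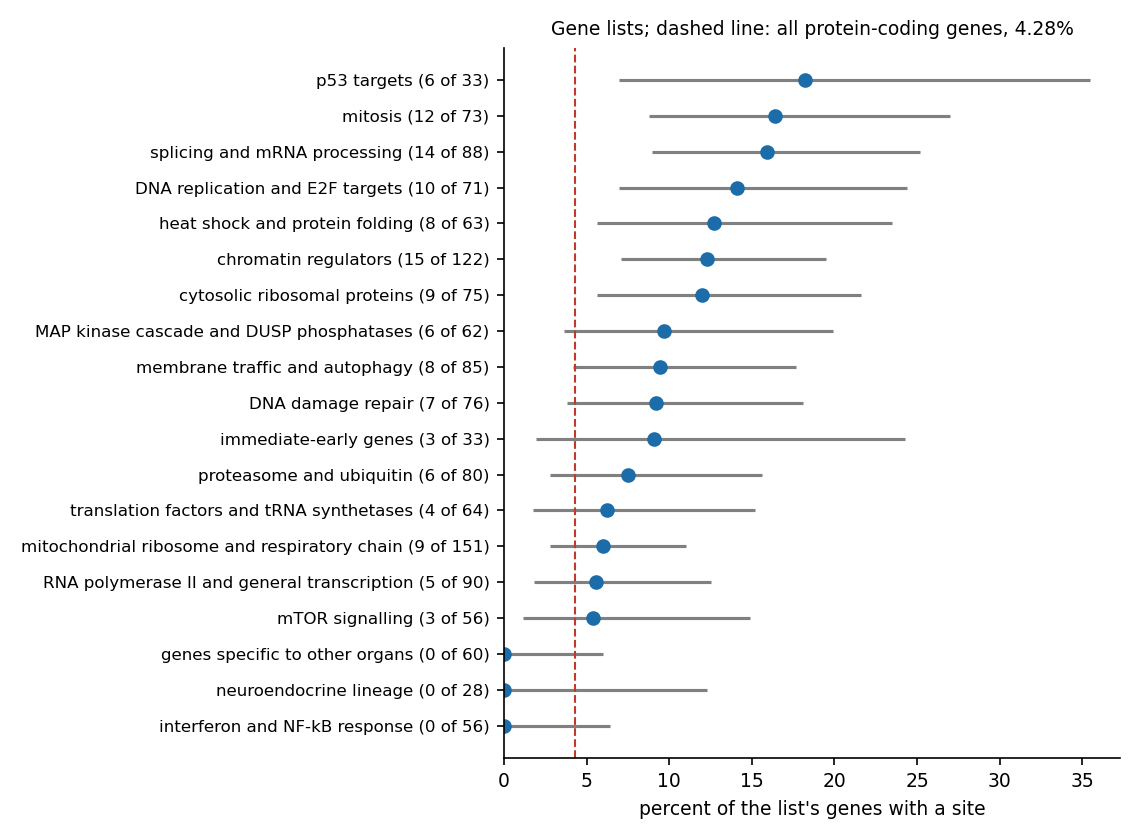
Percent of each gene list's genes with a site (x axis), with dots for the share, bars for the 95% exact binomial interval and a dashed line at 4.28%, the share of all protein-coding genes. Mitosis, splicing, DNA replication and p53 targets lie highest, and 3 lists have none.

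With RB1 siRNA the sites stayed near the median of all shared summits. Ratios were taken for sites with at least 10 fragments in both libraries and set against the median of all summits the pair shared. Sites were not left out of those summits, and a change common to all of them is removed by this centring. With each library over its background, that median was -0.14 log2 units in the siRNA pair, -0.45 in the 245-255 pair and 0.42 in the RBN pair. The interval of a ratio is the exact binomial one of its 2 fragment numbers. For 841 sites the median was 0.02 log2 units (SD 0.32 across sites), with 438 above and 403 below 0. More than 1 log2 unit higher were 2 sites, ZMYM6 and VPS8, against 0.721% of all 4437 shared summits, and 1 was lower, PPFIA1, against 0.744%. The sites also held more fragments than all shared summits (median 46 against 30 with the control siRNA), which narrows the counting spread. Among sites with at least 20 fragments in both, UBR4, a ubiquitin ligase, was highest at 0.86 with 20 fragments in control and 43 with RB1 siRNA. EZH2 was among the lowest, at -0.77 (-1.02 to -0.51), with 315 fragments in control and 219 with RB1 siRNA; in these 2 libraries the difference exceeds counting error. MRPS28, JKAMP and GPR137 were the other 3 lowest, at -0.93, -0.81 and -0.77. For MRPS28 the 28 fragments used with RB1 siRNA were the lower of the numbers that fitted, and the next, 2200, would turn its direction.

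The 245-255 construct gave a similar picture. For 759 sites the median was -0.05 (SD 0.36). Higher by more than 1 log2 unit were 4 sites against 0.599% of all 5506 shared summits: CENPH, ALMS1, DGCR2 and SCFD1. Lower were 5 against 0.999%: EML6, USP1, RPL27A, FAM98A and NABP1. USP1, a deubiquitinase of DNA repair, had 34 fragments in EV(245-255) and 13 in HA-RB(245-255). With at least 20 fragments in both, MAP4, which stabilises microtubules, was highest, at 0.93 with 23 and 43 fragments, followed by WDR43, FSIP1 and HNRNPF. The lowest were SCML1 at -0.92 with 54 and 28, NIPA2, STARD4 and GADD45A. The counting interval excluded 0 at 36 of 759 sites (4.74%) here, 13 above and 23 below. In the siRNA pair it did so at 61 of 841 (7.25%), 20 above and 41 below. A 95% interval excludes 0 at some sites through counting error alone, and the share over all shared summits was not taken.

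The RBN pair was wider, at the sites and over all shared summits alike. The SD of all shared summits was 0.65, against 0.39 in the siRNA pair and 0.40 in the 245-255 pair. Its sites held a median of 15 fragments in the control library, against 46 and 30 in those pairs, which widens the counting spread. The RBN pair could be read at 417 sites, since 438 had fewer than 10 fragments in at least 1 of its libraries. Their median was 0.25 (SD 0.52), with 277 above and 139 below 0. More than 1 log2 unit higher in HA-RBN were 29 sites (6.95%), against 3.98% of all 3543 shared summits, and 5 were lower (1.20%), against 8.95%. With at least 20 fragments in both libraries the counts were 4 and 1, and centred on the sites themselves 10 and 10. The counting interval excluded 0 at 67 sites (16.1%), 62 above and 5 below, and here too the share over all shared summits was not taken. Sites near several gene ends had a median of 0.29, gene bodies 0.05 and intergenic sites 0.13. HMGN2, a nucleosome-binding protein, was highest at 2.18 (1.5 to 2.94), with 19 fragments in EV(RBN) and 199 in HA-RBN; its 20-fragment limit was not met. Among those that met it, FBXO5, an inhibitor of the anaphase-promoting complex, was at 1.51 with 23 and 151, UNK at 1.3 with 20 and 114, SBNO1 at 1.21 with 26 and 139 and SLBP at 1.20 with 27 and 143. The lowest were MCPH1 at -1.08 with 250 and 273, ETV1 at -0.62, PWWP2A at -0.54 and HBP1 at -0.51. All 6 measured heat shock sites and 11 of 12 chromatin regulators lay above 0, where 277 of 417 sites did. So did all 3 immediate-early genes, all 3 p53 targets and both MAP kinases. It was 4 of 5 for proteasome and for membrane traffic, 3 of 4 for RNA polymerase II, and 2 of 3 for DNA repair and for DNA replication. Mitochondrial proteins had 4 of 6, splicing 6 of 10, cytosolic ribosomal proteins 2 of 4, mTOR signalling 1 of 2, mitosis 1 of 3 and translation factors 1 of 4.

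**Figure D4:**
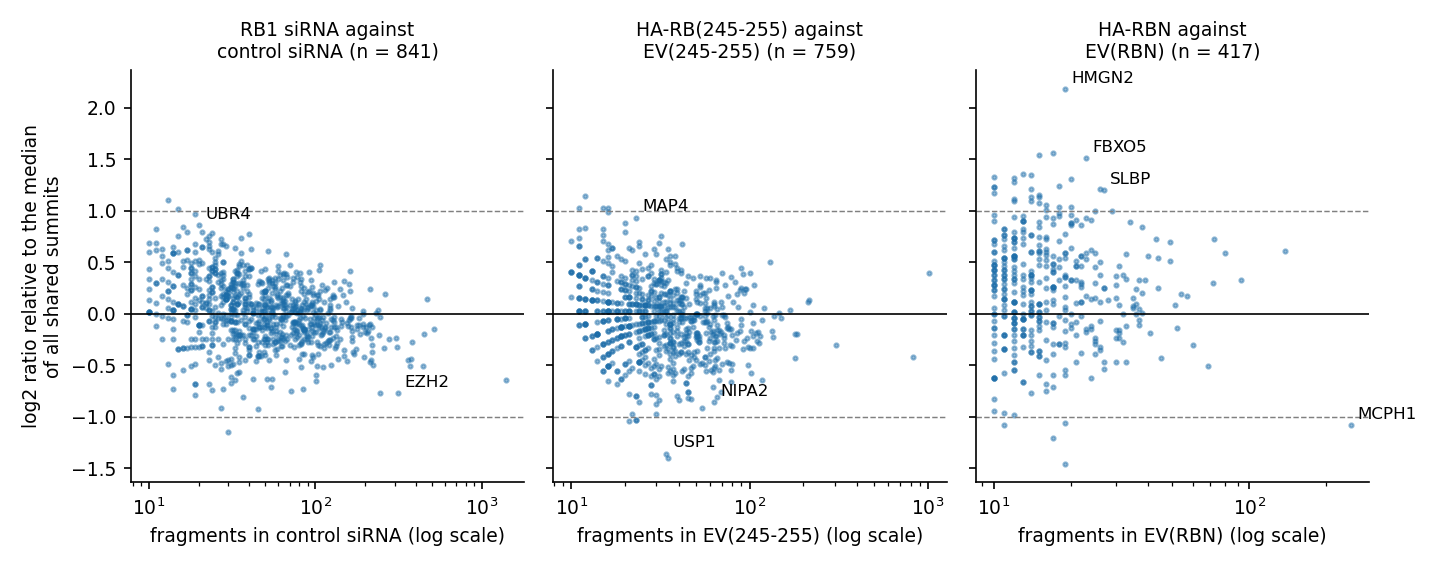
Log2 ratio of each pair relative to the median of all its shared summits (y axis) against the fragments in the control library (x axis, log scale), 1 point per site with at least 10 fragments in both libraries. Dashed lines mark 1 log2 unit; points beyond them are few in the siRNA and 245-255 panels and lie mostly above 0 in the RBN panel.

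Between the siRNA and 245-255 experiments the sites had a larger SD than within either, although over unlike sets of sites. Fragments summed over both siRNA libraries were set against those of both 245-255 libraries, each over its background, and centred on the median site. The SD across 855 sites, with no fragment minimum, was 0.53 log2 units. Within the pairs it was 0.32 and 0.36, over sites with at least 10 fragments in both libraries. In the contrast of experiments, sites near 2 or more gene ends had an SD of 0.45, gene bodies 0.78 and intergenic sites 0.72. More than 1 above lay 28 single gene end sites and more than 1 below 17, and the share over other summits was not taken. These contrasts, and the genes below, were chosen after their values were seen, and treatment, batch and IgG partner cannot be told apart in them. SLBP was highest at 1.75: it held 448 and 464 fragments in the siRNA libraries and 75 and 69 in the 245-255 libraries. EZH2 followed at 1.64 with 315 and 219 against 47 and 44, and then WARS2 at 1.59, HMGN2 at 1.58 with 368 and 306 against 53 and 67, FBXO5 at 1.56, SRSF1 at 1.51 and ZNF367 at 1.47. For ZNF367 in EV(245-255), a number at least 5.07 times higher fitted the deposited values as well as the 40 fragments used, which would turn its direction. The lowest was SHTN1, an axon-guidance protein, at -2.77, with 22 and 22 fragments against 73 and 87. With RB1 siRNA 2246 fragments also fitted at SHTN1, which would turn its direction. MCPH1 was at -2.0, C1orf116 at -1.32, NDST4 at -1.27 and YAP1, the Hippo pathway coactivator, at -1.21. For C1orf116 with the control siRNA 1530 fragments also fitted beside the 39 used, which would turn its direction.

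Each library of one experiment was also set against 1 of the other. Control siRNA against EV(245-255) put 67 sites more than 1 higher, RB1 siRNA against HA-RB(245-255) 30, and 17 were in both. In the same order, 52, 18 and 11 were lower. These counts had no fragment minimum, and the share over other summits was not taken. Chromatin regulators had 14 of 15 members above the median site (median 0.40), RNA polymerase II 5 of 5 (0.18), splicing 11 of 14 (0.22), DNA repair 6 of 7 (0.36), heat shock 6 of 8 (0.28), DNA replication 6 of 10 (0.40) and mitochondrial proteins 5 of 9 (0.29), against 427 of 855 sites. Other lists had medians below 0: cytosolic ribosomal proteins had 3 of 9 above the median site (-0.11), mitosis 5 of 12 (-0.06), membrane traffic 3 of 8 (-0.12), proteasome 2 of 6 (-0.21), p53 targets 2 of 6 (-0.12), MAP kinases 2 of 6 (-0.03), immediate-early genes 1 of 3 (-0.14), translation factors 2 of 4 (-0.03) and mTOR signalling 1 of 3 (-0.69). Promoters with an E2F site had a median of 0.22 against 0.01 without (31 promoters), and those with an AP-1 site -0.38 against 0.03 (21 promoters). The contrast correlated weakly with the GC share (r = 0.14 over 694 promoters). Gene body and intergenic sites were lower than single gene ends in it, at medians of -0.31 and -0.42, and sites near 2 or more gene ends were higher, at 0.13.

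Sites higher in the siRNA than in the 245-255 libraries tended to be higher in HA-RBN than in EV(RBN), although these 2 contrasts share no library. Over the 417 sites Pearson's r was 0.43 and Spearman's rho 0.41. Of the 28 sites more than 1 higher in the siRNA libraries, 22 could be read in the RBN pair. Of these, 21 were above 0, with a median of 0.60, against 277 of all 417 sites with a median of 0.25. Of the 29 sites more than 1 higher in HA-RBN, 26 were above 0 in the contrast of experiments, against 427 of all 855 sites. With RB1 siRNA 24 of the 29 were below 0, against 403 of 841 sites. These 2 shares were not taken over the 417 sites from which the 29 came. For the ratio of RB1 siRNA to control, r with the RBN ratio was -0.28 over 417 sites; for the 245-255 ratio it was -0.02 over 409. HMGN2, FBXO5 and YEATS4, a reader of acetylated histones, showed this: 2.18, 1.51 and 1.54 in the RBN pair, and -0.51, -0.45 and -0.50 with RB1 siRNA. The GC share correlated with the RBN ratio at r = 0.21 over 340 promoters and with the siRNA ratio at 0.01; its part in the pattern was not tested.

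**Figure D5:**
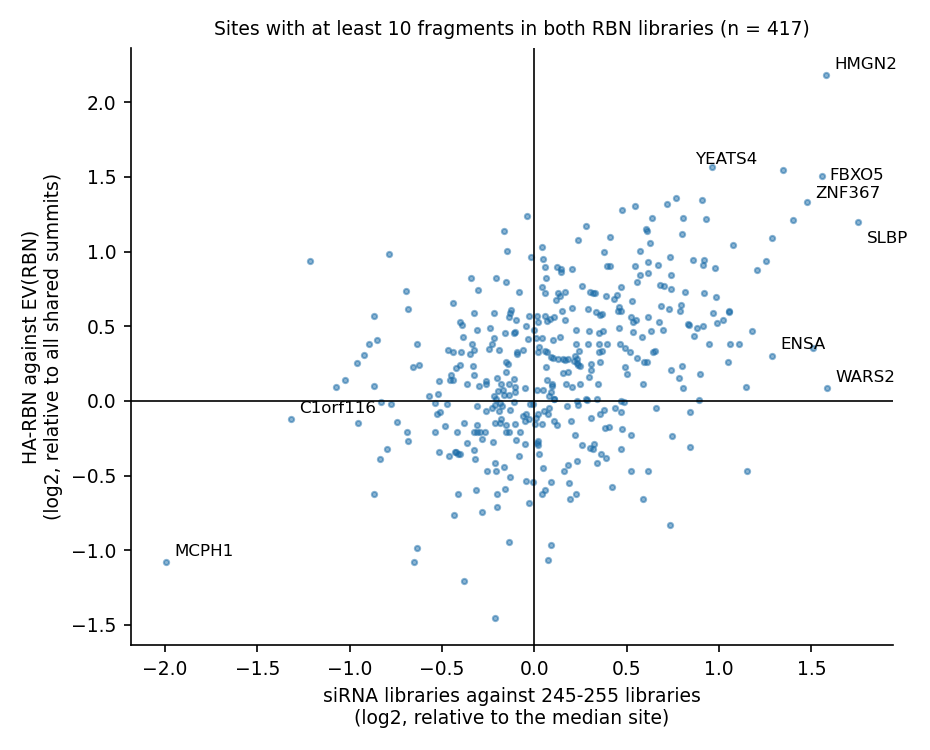
Log2 ratio of the siRNA to the 245-255 libraries (x axis, relative to the median site) against that of HA-RBN to EV(RBN) (y axis, relative to all shared summits), 1 point for each of 417 sites with at least 10 fragments in both RBN libraries. SLBP, HMGN2, FBXO5, YEATS4 and ZNF367 lie at the upper right and MCPH1 at the lower left.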

How the data were processed

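ChIP-seq libraries of 22RV1 cells were listed for 6 groups, 1 library each. MACS2 2.1.0, Bowtie 1.1.2, Trimmomatic 0.33, bcl2fastq 2.17 and build hg38 are named, per the submitters' processing notes, with no settings. The deposited lists hold, per library, the authors' fold enrichment (a ratio), −log10 p-value and −log10 q-value at each peak, and the distance of its summit. Read totals are not given, so the background in fragments per base serves as the index of depth. Fold enrichment and p-value together gave the whole number of fragments at each summit, checked on simulated data; where several fitted, the lowest was taken (needed at 112 and 86 sites of the control and RB1 siRNA libraries and at 27 and 2 of the 245-255 pair; the next was at least 2.47 times higher). Gene ends and promoters came from RefSeq tables of GRCh38.p14, without exons or UTRs; 139 of 855 genes had no matched promoter. Named genes were TRIM24, RB1, DUSP2 and MTOR, the 10 sites with the best lowest rank, the 4 highest and lowest per pair with at least 20 fragments in both, up to 3 per gene list, and those at the limits of the rule, leaving out LOC and LINC symbols. Promoters on chromosome 8 are not printed. Others were named after their values were seen. Some genes, 1 gene list and 1 motif are not reported here. The sites, lists and motifs were chosen with earlier results of these data known. Python 3.11.15, numpy 2.4.6, pandas 2.3.3, scipy 1.17.1 and matplotlib 3.10.9 were used. Alternatives are in the closing section.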

Additional observations from a re-analysis of the deposited data

How the results depend on the processing

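The number of sites depended on how close summits had to be: 208 with a match of 100 bp, 1439 with 500 bp, and 409 when all 6 summits needed at least 10 fragments. It stayed between 757 and 847 for an end window of 500 bp or 2 kb or a stricter HA-RBN q-value, and was 1018 to 1147 when 1 other list was not needed, an alternative chosen after seeing the data. With 100 bp the summits in all 6 lists were 42.2% single gene ends, 22.9% gene body and 24.9% intergenic, and 1.04% of all genes had a site. With at least 20 fragments in both libraries no site passed 1 log2 unit in the siRNA or 245-255 pair (0 higher, 0 lower), and in the RBN pair the median was 0.15 with 4 higher and 1 lower. With a pseudocount of 1 on the pileups both counts were 0 in the siRNA and 245-255 pairs, whose 245-255 median was 0.00. Centred on the sites themselves, the siRNA pair had 1 site higher, the 245-255 pair a median of 0.00 and 2 lower, and the RBN pair a median of 0.00 with 10 higher and 10 lower, so the excess of higher sites in that pair rests on centring on all shared summits. The share of summits before the gene start was 74.2% and 73.8% in the control and RB1 siRNA lists, and 80.8% and 77.4% in the empty vector and construct lists of the 245-255 pair. The number of gene lists above the share of all genes was 14 to 17, and p53 targets, the list with the largest share, had 0% with 100 bp. The number of motifs above all promoters was 9 or 10. For these values the cause was not tested. No paired analysis was possible because each group has 1 library and the labels give no replicate numbers.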
